A study of Mus musculus with 6 samples.

Results

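The genes described here are 9 complement components and receptors: C1qa, C1qb and C1qc (the C1q chains), C4b (C4), C3, Cfb (factor B), Cfp (properdin), C3ar1 (the C3a receptor) and C5ar1 (the C5a receptor). They were chosen by symbol, all 9 are among the 14005 gene identifiers of the deposited table, and all 9 passed the filter on low values.

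Complement is the set of plasma and cell-surface proteins that tags microbes, dying cells and immune complexes for removal. Its classical pathway starts when C1q, a bundle of A, B and C chains, binds a target; C4 and C2 then form an enzyme, the C3 convertase, that cleaves C3. The alternative pathway builds its own convertase from C3 and factor B and is held together by properdin, and the fragments C3a and C5a released on the way act on cells through their receptors. Most complement proteins of plasma come from the liver, whereas C1q and properdin are made largely by myeloid cells, macrophages among them.

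RNA came from bone marrow-derived macrophages (BMDM), primary cells grown out of mouse marrow. The 3 control libraries were wild-type C57BL/6J. The other 3, labelled Txn1 KO, carry the Txn1 allele Txn1tm1.1Ees/J together with the Cre allele B6.129P2-Lyz2tm1(cre)lfo/J on C57BL/6J. Cre recombinase is expressed there from the Lyz2 locus, active in myeloid cells, and Txn1 encodes thioredoxin-1. Every library labelled Txn1 KO thus carries Cre in Lyz2 as well as the Txn1 allele, and no Cre-only library was analysed here. Both groups are labelled as pooled male and female, with no age or treatment given, and whether replicates were separate animals or cultures is not stated. The p-values below therefore rest on a spread between samples that may be technical.

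The libraries held 22508616 to 38726953 reads in the listed genes. Txn1 summed over the whole gene stood at 98.2% of its wild-type level in the libraries labelled Txn1 KO and was not called, so the whole-gene level does not show the deletion, whereas Lyz2, which carries the Cre insertion, stood at 0.856%. Macrophage markers were present in all 6 libraries: Csf1r had 50502 ± 1285 normalized counts in the wild-type libraries and 52093.5 ± 494.7 in those labelled Txn1 KO (SD, n = 3 each), and Adgre1 had 17727.5 ± 709 and 16942 ± 493. These were the 2 of 9 macrophage identifiers that were not called. Of the others, 3 rose (Mertk and Itgam under 2 identifiers) and 4 fell (Lyz2, Cd68, Mrc1 and Fcgr1), beside 11.5% and 9.97% of all genes. Mertk stood at 156% of wild type, Cd68 at 92.2%, Mrc1 at 74.4% and Fcgr1 at 61.4%. Mertk, Mrc1 and Fcgr1 were named after their values were seen. Wild-type replicate 1 and Txn1 KO replicate 3 also held liver transcripts, where Alb stood at 642.9 and 580.0 normalized counts; no other library exceeded 0.838. The liver markers Trf and Apoa2 did not set those libraries apart. Normalized counts are the authors' reads divided by 1 size factor per library.

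Of the 9 genes, 6 fell, 1 rose and 2 were not called. The 6 that fell were C1qa, C1qb, C1qc, C5ar1, C3 and C3ar1, and the 1 that rose was Cfp; C4b and Cfb, both near the lower end of detection, were not called. Calls are at a Benjamini-Hochberg adjusted p under 0.05 in limma (two-sided, over 13977 genes), where 21.5% of all genes were called, 9.97% lower and 11.5% higher. The median log2 difference of the 9 was -0.43, beside -0.0049 over all genes tested. The members were chosen with earlier results of these data known, so the comparison with all genes is a description. Without the 2 libraries holding liver transcripts the counts were again 6 lower and 1 higher, where 21.1% of all genes were called. The groups did not overlap for the 7 called genes, as for 36.2% of all genes (17.6% lower and 18.5% higher in the libraries labelled Txn1 KO).

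**Figure D1:**
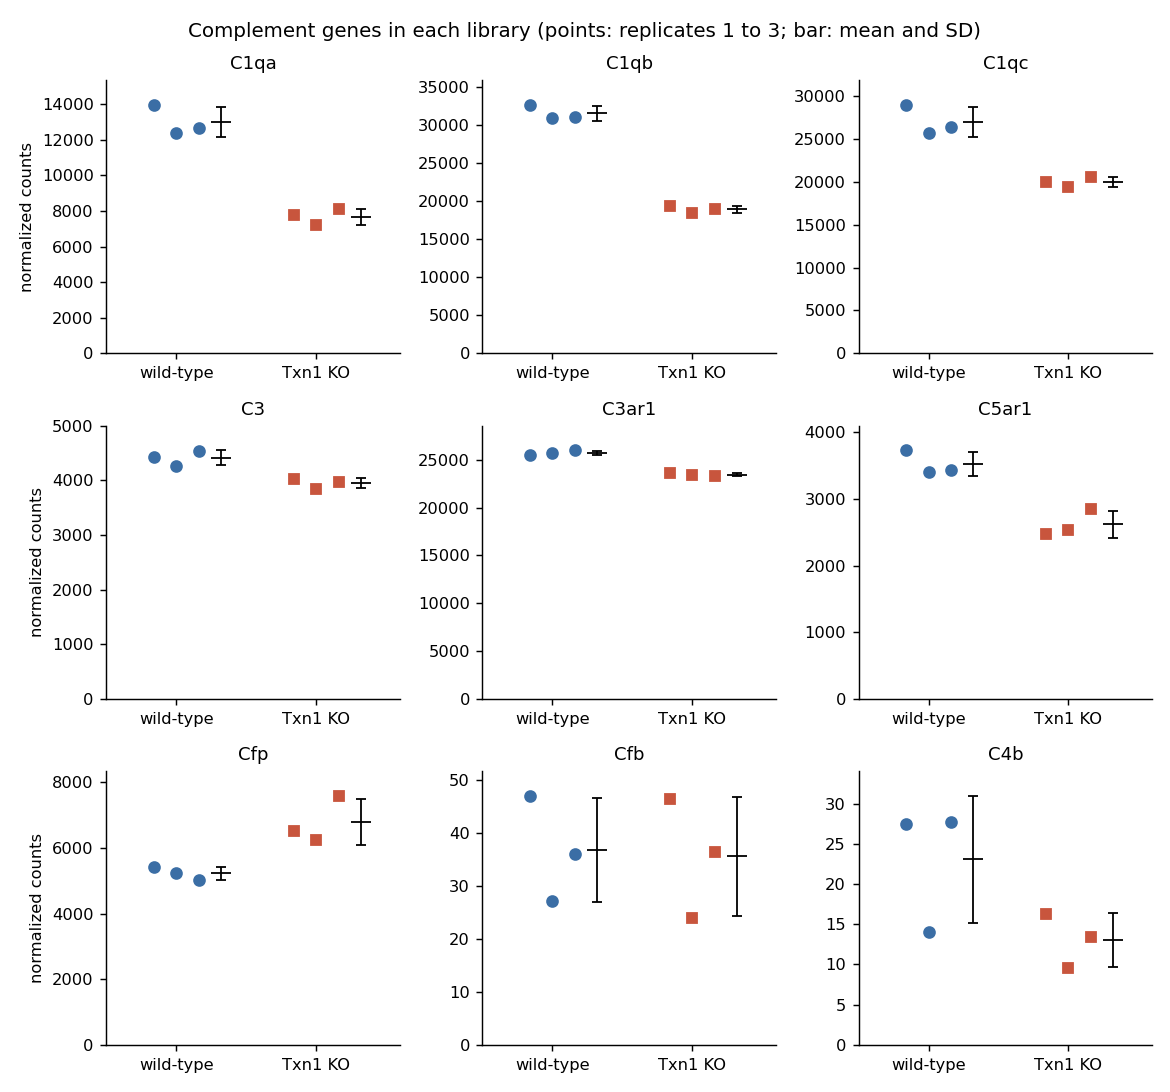
Normalized counts of the 9 complement genes (vertical axes, each starting at 0) in the wild-type (circles) and Txn1 KO (squares) libraries, replicates 1 to 3 from left to right, with the mean and SD of each group as a black bar. The 3 Txn1 KO libraries lie below all wild-type libraries for C1qa, C1qb, C1qc, C3, C3ar1 and C5ar1, and above them for Cfp, while the groups overlap for Cfb and C4b.

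All 3 C1q chains fell, and C1qa and C1qb had the largest falls of the 6 called. Their genes lie side by side on chromosome 4 (GRCm38, minus strand) within 18675 bases: C1qb at 136880129 to 136886187, C1qc at 136889804 to 136893065 and C1qa at 136895917 to 136898803, each with 3 exons in GENCODE M21. C1qa, the A chain, had 13979.7, 12375 and 12688 normalized counts in wild-type replicates 1 to 3 and 7765, 7204 and 8091 in those labelled Txn1 KO. The highest of the latter was well under the lowest wild-type value. The mean went from 13014 ± 851 to 7687 ± 449 (SD, n = 3 each), or 59.1% of wild type. On the log2 scale this was -0.76 ± 0.047 (SE), with a limma adjusted p of 2.75e-09.

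C1qb, the B chain, had 32631, 30838 and 31029 normalized counts in the wild-type libraries and 19307, 18399.9 and 18976 in those labelled Txn1 KO. It thus moved to almost the same proportion as C1qa, 60.0% of wild type. Its log2 change was -0.74 ± 0.034 (limma adjusted p = 5.13e-11). C1qc, the C chain, fell less, from 29043, 25705 and 26419 normalized counts to 20011, 19418 and 20546. That is 73.9% of wild type, a log2 change of -0.43 ± 0.041 (limma adjusted p = 5.76e-07). In bulk RNA, fewer cells expressing a gene and less RNA per cell cannot be told apart.

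The sequences before C1qb and C1qc are shown because these neighbours fell together, and that before Cfp because it is the member that rose. RefSeq windows (GRCm38.p6) of 250 bases before to 50 after the start were found for 6 of the 9 genes, with none for C1qa, C4b or Cfb, and the parts upstream of both the RefSeq and the GENCODE start are given. The C1qb stretch lies at chr4:136886201-136886450, the C1qc stretch at chr4:136893066-136893164 and the Cfp stretch at chrX:20931556-20931805, all read on the minus strand, 5′ to 3′. Capitals mark matches, on either strand, to GAGGAA (the core bound by PU.1), TGCTGA (part of the site bound by Maf) or TGACNNNGC (the core of the antioxidant response element bound by NRF2).
C1qb: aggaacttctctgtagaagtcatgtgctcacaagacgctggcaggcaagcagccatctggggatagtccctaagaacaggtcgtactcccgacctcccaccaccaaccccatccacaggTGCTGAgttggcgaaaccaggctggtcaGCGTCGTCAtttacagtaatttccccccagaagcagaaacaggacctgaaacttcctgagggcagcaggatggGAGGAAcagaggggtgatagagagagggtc
C1qc: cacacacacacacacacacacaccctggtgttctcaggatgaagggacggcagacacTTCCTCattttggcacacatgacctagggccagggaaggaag
Cfp: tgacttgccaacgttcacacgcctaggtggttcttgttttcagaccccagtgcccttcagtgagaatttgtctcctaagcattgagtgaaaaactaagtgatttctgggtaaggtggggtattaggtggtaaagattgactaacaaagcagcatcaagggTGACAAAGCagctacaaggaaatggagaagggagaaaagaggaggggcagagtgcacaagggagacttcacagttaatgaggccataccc

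In the whole 300-base windows, GAGGAA or its complement occurred in those of C1qb and C1qc and, after the start, in that of Cfp, and in 28.3% of all 32851 mouse windows of that length. TGCTGA occurred in those of C1qb, C3, C3ar1 and C5ar1 and in 19.5% of all windows. TGACNNNGC occurred in those of C1qb and Cfp and in 12.4% of all windows. The interferon response repeat (GAAA, any 2 bases, GAAA) and a composite site of ETS and IRF factors (GGAA, any 2 bases, GAAA) had no match in the 6 windows, and 3.44% and 2.72% of all windows held them. These matches may overlap one another. A match is a run of letters and does not show that a factor binds there.

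The balance between the chains was measured as ratios within each library, which do not depend on the size factor. C1qa to C1qc was 0.481, 0.481 and 0.480 in the wild-type libraries and 0.388, 0.371 and 0.394 in those labelled Txn1 KO. C1qb to C1qc was 1.12, 1.20 and 1.17 in the wild-type libraries and 0.965, 0.948 and 0.924 in the other group. Neither ratio overlapped between the groups, so C1qc took a larger part of the chain transcripts in the libraries labelled Txn1 KO.

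The log2 differences of these ratios were -0.32 and -0.30, against within-group SDs of 0.0020 to 0.048. C1qa to C1qb overlapped, at 0.413 ± 0.014 and 0.407 ± 0.018 (SD, n = 3 each), with a log2 difference of -0.022. In an exact two-sided permutation test over the 6 libraries p was 0.1 for the first pair of ratios, the smallest that 3 against 3 can give, and 0.6 for C1qa to C1qb; adjusted over the 3 ratios these were 0.15 and 0.6.

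**Figure D2:**
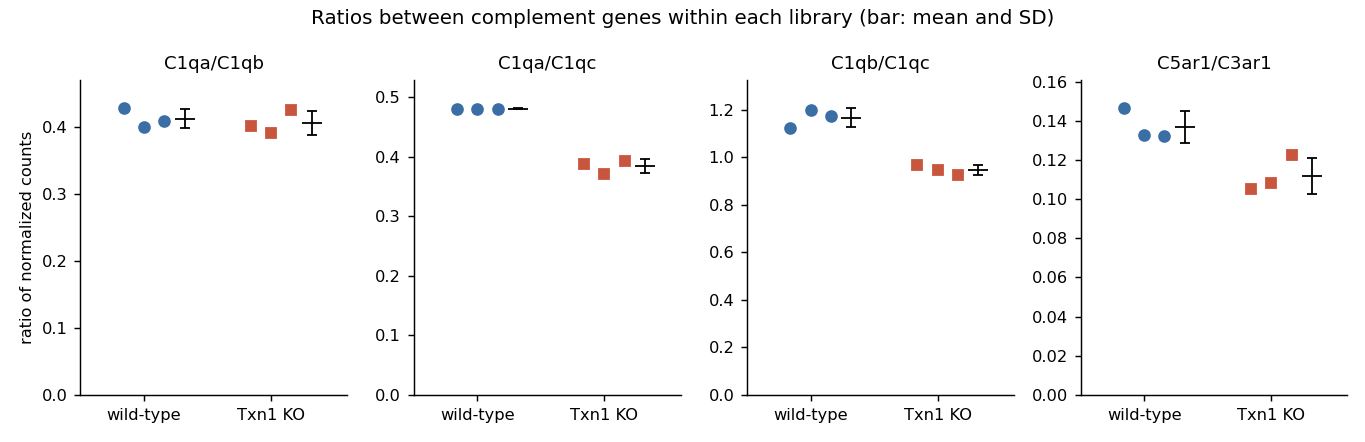
Ratios of normalized counts between complement genes within each library (vertical axes, from 0) for wild-type (circles) and Txn1 KO (squares) libraries, with group mean and SD as a black bar. C1qa/C1qb overlaps between the groups, whereas C1qa/C1qc, C1qb/C1qc and C5ar1/C3ar1 are lower in all 3 Txn1 KO libraries.

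Per kilobase of annotated exon, C1qb was the most abundant of the 9 in both groups. In wild type it had 28952 ± 905 normalized counts per kilobase (SD, n = 3), rank 35 of 13944 genes with a length, and in the libraries labelled Txn1 KO 17366, rank 61. C1qc followed with 14011 ± 910 per kilobase and C1qa with 12514 ± 818 in wild type, and with 10353 and 7391 in the other group. The wild-type means were less than 2 SDs apart, but these SDs are across libraries in which both genes moved together. Within the wild-type libraries C1qa to C1qc was 0.480 to 0.481 before division by length, so C1qc was above C1qa per kilobase in each. Below the C1q chains on the same scale in wild type came C3ar1 at 5971, Cfp at 3006, C5ar1 at 1370.4, C3 at 858, Cfb at 13.0 and C4b at 4.05. The order was the same in the libraries labelled Txn1 KO. Lengths are of all GENCODE M21 exons of a gene, which need not be the isoforms counted.

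None of the 5 other tested genes within 500000 bases on either side of the C1q genes was called lower. As 9.97% of all genes were called lower, so few genes cannot show whether the fall was particular to the C1q genes. Luzp1, Zbtb40, Cdc42 and 2810405F17Rik were not called, with log2 differences of -0.14, -0.11, -0.010 and -0.26; the last had an SE of 0.26, so a fall of the size of C1qc lies within its error. Kdm1a, which encodes a histone demethylase, rose by 0.16 (limma adjusted p = 0.0367), a call lost without wild-type replicate 1, 2 or 3 or Txn1 KO replicate 2 (adjusted p = 0.113, 0.0781, 0.0669 and 0.181) and with the replicate number as a block (0.0519). These genes were named after their values were seen. Txn1 is on the same chromosome at 57943373 to 57956411, and of the 856 tested genes of chromosome 4, 18.6% were called, 84 higher and 75 lower.

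Of the transcription factors known to act on C1q genes in macrophages, Maf fell while Spi1 and Irf8 were not called. Maf had 5809.9, 6247 and 6149 normalized counts in the wild-type libraries and 4369, 4466 and 4807 in those labelled Txn1 KO. The groups did not overlap, and the log2 change was -0.42 ± 0.042 (SE; limma adjusted p = 1.23e-06). Spi1, which encodes PU.1, had 12846 ± 685 and 12714 ± 223 normalized counts (log2 -0.014), and Irf8, named after its values were seen, had 7986 ± 129.5 and 8252 ± 44.9 (log2 0.047).

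Over the 6 libraries, the genes with levels most like the mean log2 level of the 3 chains were Rasgrp3, Kxd1, Aagab, Fbxo44 and Lpin1, by Pearson's r among 10233 genes with a mean of at least 100 normalized counts. Their r ran from 0.995 to 0.998, and 32 genes had an r of at least 0.99. The 6 points share the difference between the groups, so these are descriptions. Rasgrp3 had 1917, 1804 and 1812 normalized counts in the wild-type libraries and 1456, 1418 and 1439 in those labelled Txn1 KO. Rasgrp3 moved by -0.36 on the log2 scale, less than each of the chains. Lpin1 moved by -0.59, more than C1qc and less than C1qa and C1qb.

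C4b, whose product carries the classical pathway from C1 to C3, was barely detected. It had 27.5, 14.0 and 27.7 normalized counts in the wild-type libraries and 16.2, 9.57 and 13.5 in those labelled Txn1 KO, from 10 to 33 reads per library. The groups overlap. Its log2 difference of -0.74 had a 95% interval of -1.57 to 0.088 (limma adjusted p = 0.208), so neither no difference nor a fall as large as that of C1qa lies outside it. The difference was -0.29 with total-count scaling and -1.05 without wild-type replicate 2, and it was not called in either. C4a, its near-identical neighbour on chromosome 17, had 27.5, 17.1 and 21.0 normalized counts in the wild-type libraries and 12.8, 33.5 and 29.6 in the other group, and reads can be assigned to either copy, so both are uncertain.

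C3, the component on which all pathways meet, fell by a small margin. On chromosome 17 (57203970 to 57228136), it had 4429, 4266 and 4540.3 normalized counts in the wild-type libraries and 4031, 3846 and 3976 in those labelled Txn1 KO. Each of the latter was below the lowest wild-type library. The level was 89.5% of wild type (log2 -0.16 ± 0.038, limma adjusted p = 0.00571), and the adjusted p ranged up to 0.0476 when single libraries were left out.

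Cfb, which supplies the enzyme of the alternative convertase, did not differ detectably at its depth of 25 to 46 reads. It had 46.9, 27.2 and 36.1 normalized counts in the wild-type libraries and 46.4, 23.9 and 36.3 in those labelled Txn1 KO. The values of the groups interleave. The 95% interval of its level ran from 62.2% to 148% of wild type (limma adjusted p = 0.919), and 2246 of its 2825 exon bases are shared with Gm20547 on the same strand, so its counts are uncertain.

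Cfp, which encodes the stabilizer of that convertase, was the member that rose. It had 5410.5, 5229 and 5018 normalized counts in the wild-type libraries and 6516, 6244 and 7571 in those labelled Txn1 KO. All of the latter were above every wild-type library, and Txn1 KO replicate 3, one of the libraries with liver transcripts, was the highest. The mean went from 5219 ± 196 to 6777 ± 701, 130% of wild type (log2 0.37 ± 0.055, limma adjusted p = 8.28e-05), and leaving out both libraries with liver transcripts gave 0.32 on the log2 scale (adjusted p = 1.34e-07 in limma).

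Cfp lies on chromosome X (20925454 to 20931555), and the groups also differed in sex-linked transcripts. Eif2s3y, on the Y chromosome, was at 51.0% of wild type, and Xist, expressed from the inactive X, at 123%. Xist had 4813, 4710.5 and 6246 normalized counts in Txn1 KO replicates 1 to 3, so replicate 3 was the highest, as for Cfp. Of 442 tested genes of chromosome X, 16.5% were called, 27 higher and 46 lower, with a median log2 difference of -0.026. The part of a difference in sex composition in the rise of Cfp, or in the changes of the other members, was not tested.

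The C3a receptor gene C3ar1 and the C5a receptor gene C5ar1 fell, C5ar1 by more. C5ar1 (chromosome 7, 16246743 to 16259540), the receptor of neutrophils and macrophages for C5a, had 3729, 3408 and 3428 normalized counts in the wild-type libraries and 2477, 2535 and 2844 in those labelled Txn1 KO. The mean was 74.3% of wild type (log2 -0.43 ± 0.052, limma adjusted p = 1.02e-05). C3ar1 (chromosome 6, 122847138 to 122856161), the receptor for C3a, had 25474, 25684 and 25961 in the wild-type libraries and 23561.5, 23420.5 and 23245 in the other group.

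C3ar1 had the tightest replicates of the 9 genes, with coefficients of variation of 0.951% and 0.678%. Its fall to 91.1% of wild type (log2 -0.14 ± 0.030, limma adjusted p = 0.00318) is therefore small but larger than that spread. The ratio of C5ar1 to C3ar1 was 0.137 ± 0.0081 in the wild-type libraries and 0.112 ± 0.0092 in those labelled Txn1 KO (SD, n = 3 each), without overlap. That difference was not tested. C5ar2, the other C5a receptor and named after its values were seen, had 271, 265 and 219.7 normalized counts in the wild-type libraries and 287, 293 and 319 in those labelled Txn1 KO. Its values lay above every wild-type library, opposite to C5ar1 in sign, but it was not called (log2 0.25 ± 0.10, limma adjusted p = 0.0881).

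Replicates within a group were ordered alike for several members. C1qa, C1qc, C5ar1 and Cfp, 4 of the 9, were highest in wild-type replicate 1 among the wild-type libraries and in Txn1 KO replicate 3 among the others, the libraries with liver transcripts. Deviations of these libraries from their group means correlated at 0.34 over 10240 genes, so the deviation that they shared was not confined to the members. C1qa, C1qb, C1qc, C3, Cfb and C4b were lowest in wild-type replicate 2 and Txn1 KO replicate 2, which lacked liver transcripts. For that pair of libraries the deviations correlated at -0.018 over the same genes. The share of all genes with either order was not measured. Leaving out both libraries with liver transcripts gave log2 changes of -0.74 for C1qa, -0.71 for C1qb, -0.40 for C1qc, -0.45 for C5ar1, -0.16 for C3 and -0.14 for C3ar1, and the 6 calls remained.

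Among other complement genes, Itgam, Itgax and Itgb2, which encode integrin chains of the receptors for C3 fragments, rose, as did C1ra and Colec12. Of 47 further genes listed, 24 are in the table under 25 identifiers, and of the 24 identifiers tested 6 rose and 1 fell, beside 11.5% and 9.97% of all genes, with a median log2 difference of 0.081. Itgam accounts for 2 of the 6, under separate identifiers. Most of the plasma proteins were not analysed here: 1 of 7 terminal components (C8g) and 4 of 13 initiators were listed. Itgam encodes the alpha chain of complement receptor 3, Itgax that of receptor 4, and Itgb2 their shared beta chain.

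Itgam had 6776, 6616 and 6339.6 normalized counts in the wild-type libraries and 8788, 8703 and 9980.5 in those labelled Txn1 KO (log2 0.48 ± 0.046, limma adjusted p = 8.76e-07). Itgb2 had 42813, 40296 and 43070.2 in the wild-type libraries and 51639, 51958 and 49102 in the other group (log2 0.28 ± 0.036, limma adjusted p = 2.16e-05). Itgax rose by 0.66 from 3524.5 ± 139 (limma adjusted p = 1.53e-08). Hence all chains of both receptors were higher in each library labelled Txn1 KO than in any wild-type library, opposite to C3ar1 and C5ar1. A second identifier under the symbol Itgam overlaps the first and rose from 8.62 to 29.5 normalized counts, and is uncertain for that overlap. Lrp1, a large endocytic receptor, had a log2 difference of 0.066 and was not called.

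In the initiating group 2 of 4 rose, beside 11.5% of all genes called higher and 9.97% called lower. C1ra, a protease of the C1 complex, had 222, 196 and 218 normalized counts in the wild-type libraries and 313, 299 and 299 in those labelled Txn1 KO (log2 0.52 ± 0.095, limma adjusted p = 6.95e-04). It has a close copy, C1rb, and is uncertain for that reason. Colec12, a membrane collectin, rose from 1176 ± 16.0 to 1562 ± 6.38 (log2 0.41 ± 0.046, limma adjusted p = 4.00e-06). Fcna, a ficolin, was not called (log2 0.066), and none of the 4 fell.

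Of the 2 convertase genes listed beside C4b and Cfb neither was called, C4a at 0.12 and C2 at -0.86 (log2; limma adjusted p = 0.872 and 0.114). C8g, a chain of the membrane attack complex, had a log2 difference of 0.19 and was not called. Among 9 regulators tested 1 fell, a share near the 9.97% of all genes called lower. That gene, Sez6l2, encodes a membrane protein with complement control domains. Sez6l2 had 164, 121 and 139 normalized counts in the wild-type libraries and 103, 94.7 and 76.7 in those labelled Txn1 KO (log2 -0.62 ± 0.16, limma adjusted p = 0.00946). That call was lost without wild-type replicate 1 (log2 -0.51, adjusted p = 0.0623) and without both libraries with liver transcripts (-0.39, adjusted p = 0.128). Cr1l, which encodes the rodent regulator Crry, had 3013 ± 72.8 and 2840.2 ± 12.8 normalized counts and was not called (limma adjusted p = 0.132).

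Serping1 and Vtn were named after their values were seen. Serping1, the C1 inhibitor, had 17.3, 18.7 and 26.0 normalized counts in the wild-type libraries and 9.27, 5.74 and 10.8 in those labelled Txn1 KO, as few as 6 reads, and stood just past the threshold (limma adjusted p = 0.0515). It was called without Txn1 KO replicate 3 (log2 -1.36, limma adjusted p = 0.0358) and without both libraries with liver transcripts (-1.47, limma adjusted p = 0.0379). A pseudocount of 5 (-0.92, limma adjusted p = 0.048) and edgeR (-1.30, adjusted p = 0.0291) also gave a call. In the other settings run it was not called. The limma adjusted p was 0.212 without wild-type replicate 3 and 0.148 without Txn1 KO replicate 2, and the DESeq2 adjusted p was 0.0718. Vtn, the terminal pathway inhibitor vitronectin, had 110.0 and 99.6 normalized counts in the libraries with liver transcripts and at most 1.16 in the other 4.

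**Figure D3:**
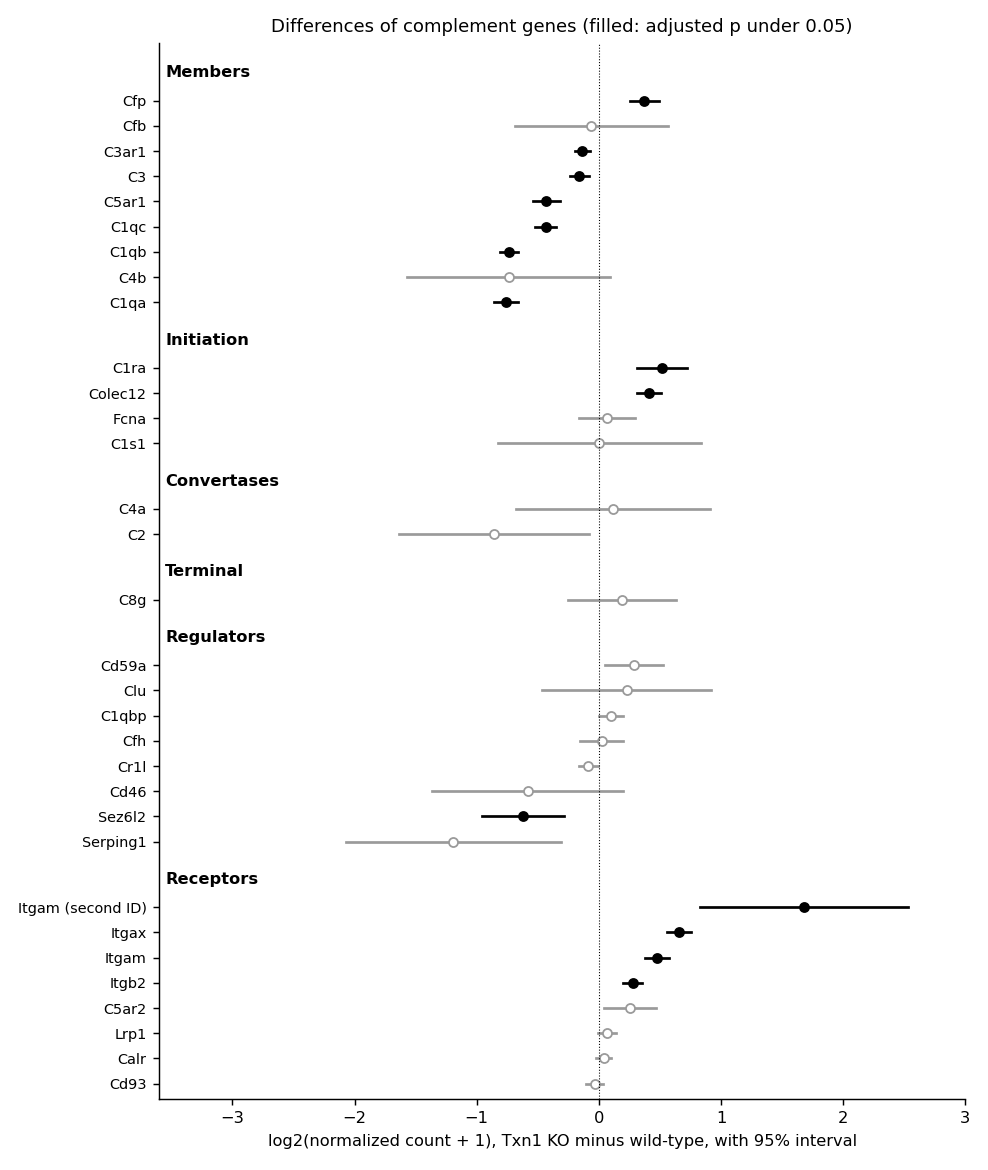
Log2 differences (horizontal axis, Txn1 KO minus wild-type, on log2(normalized count + 1)) with 95% intervals from limma for the 9 members and 23 further complement identifiers grouped by role, Vtn left out. Filled points passed an adjusted p under 0.05: 6 members lie below 0 and Cfp above it, while the integrin chains Itgam, Itgax and Itgb2 lie above 0.

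Markers of other cells were examined because liver, stroma and interferon-treated cells also express complement genes. Of 12 stromal markers 7 fell and 0 rose, beside 9.97% and 11.5% of all genes. Their summed level was 2151 to 2439 normalized counts in the wild-type libraries and 985 to 1662 in those labelled Txn1 KO. Col1a1, Col1a2, Dcn and Col3a1 led by level. All 12 interferon-stimulated genes fell, beside the same 9.97% of all genes, with sums of 55527 to 69769 and 33189 to 43058.5. Those with the highest level were Rsad2, Ifit3, Ifit2 and Irf7. Both lists were thus lower in the same libraries as the C1q chains, C3, C3ar1 and C5ar1, and their part in those falls was not tested.

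Liver markers, 8 of 16 listed, summed to 2663 and 2635 normalized counts in the libraries with liver transcripts and to 1519 to 1756 in the other 4, of which Trf made up 1398 to 1521. Alb, Ttr, Fga, Fgb and Fgg were each at most 0.838 in those 4 libraries and higher in both libraries with liver transcripts. Apoa2 went the other way, as Trf did: it had 26.5 and 24.2 in the libraries with liver transcripts and 13.2 to 25.2 in the other 4. Apoa2, Ttr, Fga and Fgg were named after their values were seen. Hp was the 1 marker of 8 that rose, beside 11.5% of all genes. Neutrophil markers, 6 of 10 listed, summed to 296.5 to 330.4 in the wild-type libraries and 270.5 to 336.2 in the other group, with S100a9 and Ngp lower, S100a8 and Mpo not called, and Elane and Ly6g not listed. Of 5 B cell markers Cd79b alone was listed, at 20.1 to 30.6, and none of 5 T and NK cell markers. Dendritic cell markers, 5 of 6 listed, summed to 233.1 to 281.7 in the wild-type libraries and 329.2 to 369.8 in those labelled Txn1 KO, where Ccr7 rose while Zbtb46, Siglech and Xcr1, each near the lower end of detection, were not called. The part of these cells in the results was not tested.

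**Figure D4:**
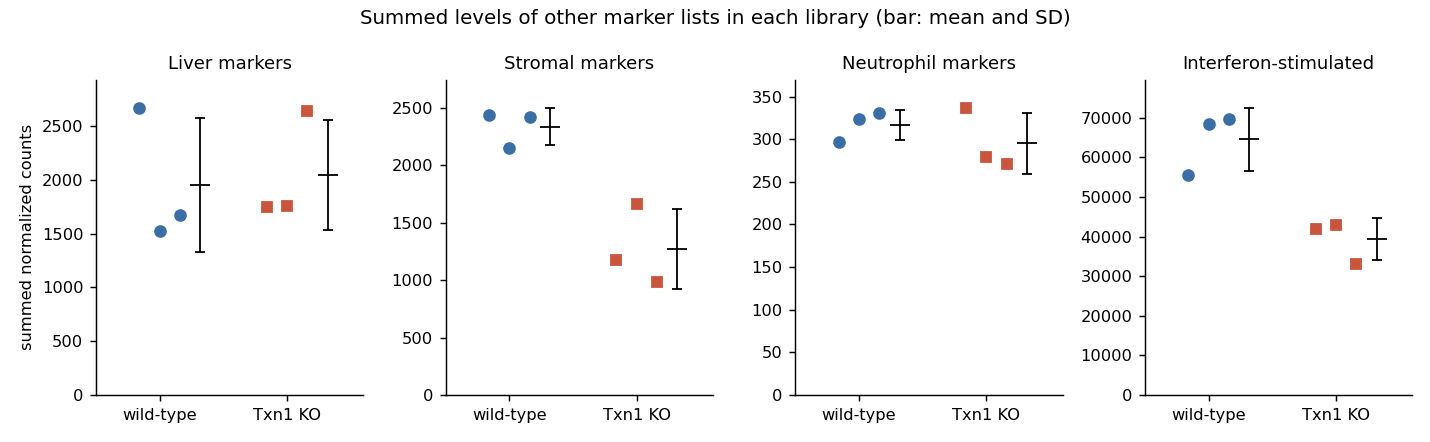
Summed normalized counts (vertical axes, from 0) of the liver, stromal, neutrophil and interferon-stimulated lists in wild-type (circles) and Txn1 KO (squares) libraries, replicates 1 to 3 from left to right, with group mean and SD. Liver sums are high in wild-type replicate 1 and Txn1 KO replicate 3, while the stromal and interferon sums are lower in all 3 Txn1 KO libraries.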

How the data were processed

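PolyA-selected RNA of 6 libraries was sequenced. The tools named in processing, per the submitters' processing notes, were STAR 2.5.2b, Trimmomatic 0.36, bcl2fastq 2.20 and DESeq2, with GRCm38 (mm10). With the counter, annotation and use of strand not given in the sources used here, reads of overlapping or antisense genes cannot be told apart. The deposited signal is the authors' read count over 1 size factor per library: 100% of values were whole multiples of a library's smallest step, at a tolerance of 0.01 reads. The deposited table also holds the authors' log2 fold changes and p-values. Columns named BMDM with a number were read as wild type, the one other group.

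The main test was limma 3.58.1 (R 4.3.3, trended prior) on log2(normalized count + 1), which understates changes of low genes, over 13977 genes with a mean of at least 10; edgeR 4.0.16 and DESeq2 1.42.0 on recovered reads were alternatives. A floor of 3 reads equals 2.33 to 4.04 normalized counts, by counting error alone. Positions and exon lengths came from GENCODE M21, which matched 13972 of 14005 identifiers. The scripts were tested on simulated data. Members and lists were chosen with earlier results of these data known. Named were all members, called genes of the other complement and factor lists with the highest uncalled one, up to 4 markers per list by level, and the 5 genes most like the C1q chains. One gene of the transcription factor list is not reported here.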

Additional observations from a re-analysis of the deposited data

How the results depend on the processing

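For the 9 members, the counts of 6 lower and 1 higher were the same under all alternatives run (other pseudocounts, filters, scalings and tests, a stricter threshold, leaving out libraries, and the authors' deposited table), and each of the 7 called genes kept its direction and call. C1qa ranged from -0.80 to -0.71 (log2), C1qb from -0.75 to -0.71, C1qc from -0.47 to -0.38, C5ar1 from -0.49 to -0.39 and Cfp from 0.29 to 0.43. C4b, not called, ranged from -1.05 to -0.29, the latter with total-count scaling (log2 of CPM + 1, which shrinks differences of low genes). Cfb turned positive without both libraries with liver transcripts (0.088), and ran from -0.27 to 0.19 when single libraries were left out. In the wider list the count of lower genes was 2 at a pseudocount of 5 and in edgeR, and 0 to 2 when single libraries were left out (0 without wild-type replicate 1, 2 without Txn1 KO replicate 3). Over all genes, an adjusted p under 0.01 gave 1833 calls, 1024 higher and 809 lower, and leaving out single libraries gave 891 (without wild-type replicate 3) to 1303 lower calls. Among uncalled genes, leaving out single libraries moved Fcna from -0.0019 to 0.13, C4a from -0.13 to 0.53, Spi1 from -0.054 to 0.023 (0.027 without both libraries with liver transcripts) and Vtn from -2.00 to 2.15. Vtn was also below 0 at a pseudocount of 5 (-0.020), with total-count scaling (-0.032), in DESeq2 (-0.14) and in the authors' deposited table (-0.14). The cause was not tested.

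With the replicate number as a block, 2675 genes were called against 3001, and the calls of the members did not change. The numbers did not pair the samples: deviations of equal numbers correlated at -0.23, -0.018 and -0.28 over 10240 genes, and no wild-type library correlated best with its own number. Depth limits C4b, Cfb, C2 and Serping1.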
